A study of Homo sapiens with 16 samples.

Results

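Open chromatin was described at the genes of 9 surface molecules of the T lineage: CD4, CD8A, CD8B, CD2, CD5, CD6, CD7, CD1A and CD1D. The genes were covered by 6 windows on hg19, at chr12:6885000-6935000 for CD4, chr2:86990000-87110000 for CD8A and CD8B, chr1:117280000-117330000 for CD2, chr11:60735000-60900000 for CD6 and CD5, chr17:80255000-80295000 for CD7 and chr1:158140000-158335000 for CD1A and CD1D. Overlapping peaks, from whichever list, were joined once they had 1 base in common, which gave 80 regions in the windows out of 131357 in the genome. Regions are numbered by position within their window. No hg19 gene model was used, so a region belongs to a window and not to a promoter, exon or intron, and windows with 2 members are described together.

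The libraries were ATAC-seq, which reads open chromatin by the insertion of adapters with the Tn5 transposase, from DND41 and MOLT4, 2 established cell lines of human T-cell acute lymphoblastic leukaemia. Each line was grown with the solvent DMSO or with 100 nM ACBI-1 and was taken at 3 h or at 24 h, and every one of the 8 groups had 2 libraries. ACBI-1 is a PROTAC, a bifunctional degrader, whose targets are SMARCA2, SMARCA4 and PBRM1, all subunits of SWI/SNF remodelling complexes. Whether replicate libraries stem from separate cultures is not said in the labels, and p-values here therefore cover the spread among these libraries alone, which may be technical.

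SWI/SNF complexes slide and evict nucleosomes with the energy of ATP, and many enhancers stay open only while a complex is at work there. CD4 and CD8 are the coreceptors that bind MHC class II and class I beside the T-cell receptor. CD2 is an adhesion receptor, CD5 and CD6 set the strength of receptor signalling, CD7 is among the earliest surface proteins of the lineage, and CD1a and CD1d present lipids, with CD1a marking cortical thymocytes. Leukaemias of this lineage are classified by which of these proteins they carry.

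Groups were taken from the sample titles, because the cell line field gave the same line as the title in only 8 of the 16 samples. The line code inside the peak names matched the title in 16 of 16 libraries, and each library was most like a library of its title's line. The field would make all 3 h libraries MOLT4 and all 24 h libraries DND41, so under the field line and time cannot be told apart, while the treatment comparison stays within the same pairs of groups. Lists held 26145 to 46712 peaks on chromosomes 1 to 22 and X, with 42551 ± 3102 (SD, n = 8) in DMSO and 30710 ± 2522 (SD, n = 8) in ACBI-1 libraries. Read depth is unknown, and a missing peak means only that none was listed. The lists give positions but no heights, so each region was read by presence of a peak and by width, the bases covered by peaks. Expression was not measured in these files, so the surface phenotype of the lines could not be checked.

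The RefSeq promoter table of build GRCh38.p14 held entries for 4 of the 9 genes, CD1A, CD1D, CD2 and CD8A. The 250 bases before the start of each are shown to give the letters of these genes' upstream DNA, on the strand of the gene. The table lists 2 starts for CD1A, 2 for CD1D, 1 for CD2 and 4 for CD8A. Where it lists several, the one nearest the upstream edge of the gene was taken, and the others were not searched for motifs. The stretches shown lie at chr1:158248086-158248335 (CD1A, plus strand), chr1:158179697-158179946 (CD1D, plus strand), chr1:116754180-116754429 (CD2, plus strand) and chr2:86808397-86808646 (CD8A, minus strand) of GRCh38.p14, and were not placed among the hg19 regions. Capitals mark matches, on either strand, to core motifs of factor families that act in T cells: TGTGGT (RUNX), AGGAAG (ETS), CTTTGA (TCF/LEF), CAGCTG (E-box), and for the GATA family the letters AGATAA.
CD1A: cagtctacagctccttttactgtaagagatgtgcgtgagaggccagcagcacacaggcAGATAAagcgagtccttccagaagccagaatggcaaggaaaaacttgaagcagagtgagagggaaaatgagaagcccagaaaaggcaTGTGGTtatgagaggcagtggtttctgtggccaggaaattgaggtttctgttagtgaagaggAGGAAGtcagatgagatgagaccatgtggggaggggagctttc
CD1D: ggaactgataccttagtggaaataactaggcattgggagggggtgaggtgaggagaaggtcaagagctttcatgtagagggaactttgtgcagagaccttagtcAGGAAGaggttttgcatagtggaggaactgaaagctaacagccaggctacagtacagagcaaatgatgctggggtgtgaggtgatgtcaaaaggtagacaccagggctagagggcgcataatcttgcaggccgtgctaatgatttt
CD2: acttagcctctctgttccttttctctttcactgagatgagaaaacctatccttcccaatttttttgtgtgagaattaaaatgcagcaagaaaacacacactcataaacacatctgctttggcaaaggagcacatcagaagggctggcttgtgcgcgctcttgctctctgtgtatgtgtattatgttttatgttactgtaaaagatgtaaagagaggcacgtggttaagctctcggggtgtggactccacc
CD8A: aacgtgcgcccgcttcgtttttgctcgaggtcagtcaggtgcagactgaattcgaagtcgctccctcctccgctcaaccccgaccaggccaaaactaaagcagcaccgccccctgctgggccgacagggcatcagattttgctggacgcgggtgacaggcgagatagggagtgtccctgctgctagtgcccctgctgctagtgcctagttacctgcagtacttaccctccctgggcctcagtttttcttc
CD1A held a GATA match 192 to 187 bases before its start, a RUNX match at 105 to 100 and an ETS match at 43 to 38. CD1D held an ETS match 146 to 141 bases before its start, and CD2 and CD8A held none of the 5 motifs in this stretch. Of 35116 promoter entries of the same length, 11% held the RUNX letters, 28.7% the ETS letters, 9.17% the GATA letters, 11.2% the TCF/LEF letters and 14.0% the E-box letters. A match describes the letters only, and no match says nothing of the factor.

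Of the 80 surface-gene regions, 8 had a peak in all 16 libraries, 44 in at least 4, 17 in 2 or 3, and 19 in 1 library only. Across the genome 9.16% of regions were in all 16 libraries and 51% in a lone library. The windows differed in their stable part. The CD8A/CD8B, CD6/CD5 and CD1A/CD1D windows each held 2 regions found in all 16 libraries, the CD2 and CD7 windows held 1 each, and the CD4 window held none.

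The main comparison asked how peaks at these genes differed between ACBI-1 and DMSO. Fewer of the 80 regions had a peak with ACBI-1. Only 14 of them could be tested by presence, and 6 were called lower, against 27.9% of 8082 regions across the genome. The CD7 window carried 3 of the 6. With all lists cut to the length of the shortest, none was called. In DND41 at 3 h the DMSO libraries had peaks in 42 and 33 of the regions and the ACBI-1 libraries in 16 and 19. In DND41 at 24 h the numbers were 39 and 35 against 17 and 21. In MOLT4 they were 38 and 41 against 26 and 29 at 3 h. At 24 h in MOLT4 they were 44 and 41 against 37 and 31. In each line and time both ACBI-1 libraries lay below both DMSO libraries, as they also did in the number of peaks in the full lists. For DND41 the change was -53.3% (3 h) and -48.6% (24 h), and for MOLT4 it was -30.4% (3 h) and -20.0% (24 h). The full lists changed by -32.4% and -27.0% for DND41 and by -30.8% and -20.5% for MOLT4. In MOLT4 the surface-gene regions thus moved by about as much as the lists, and the larger change in DND41 was not tested as a group.

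**Figure D1:**
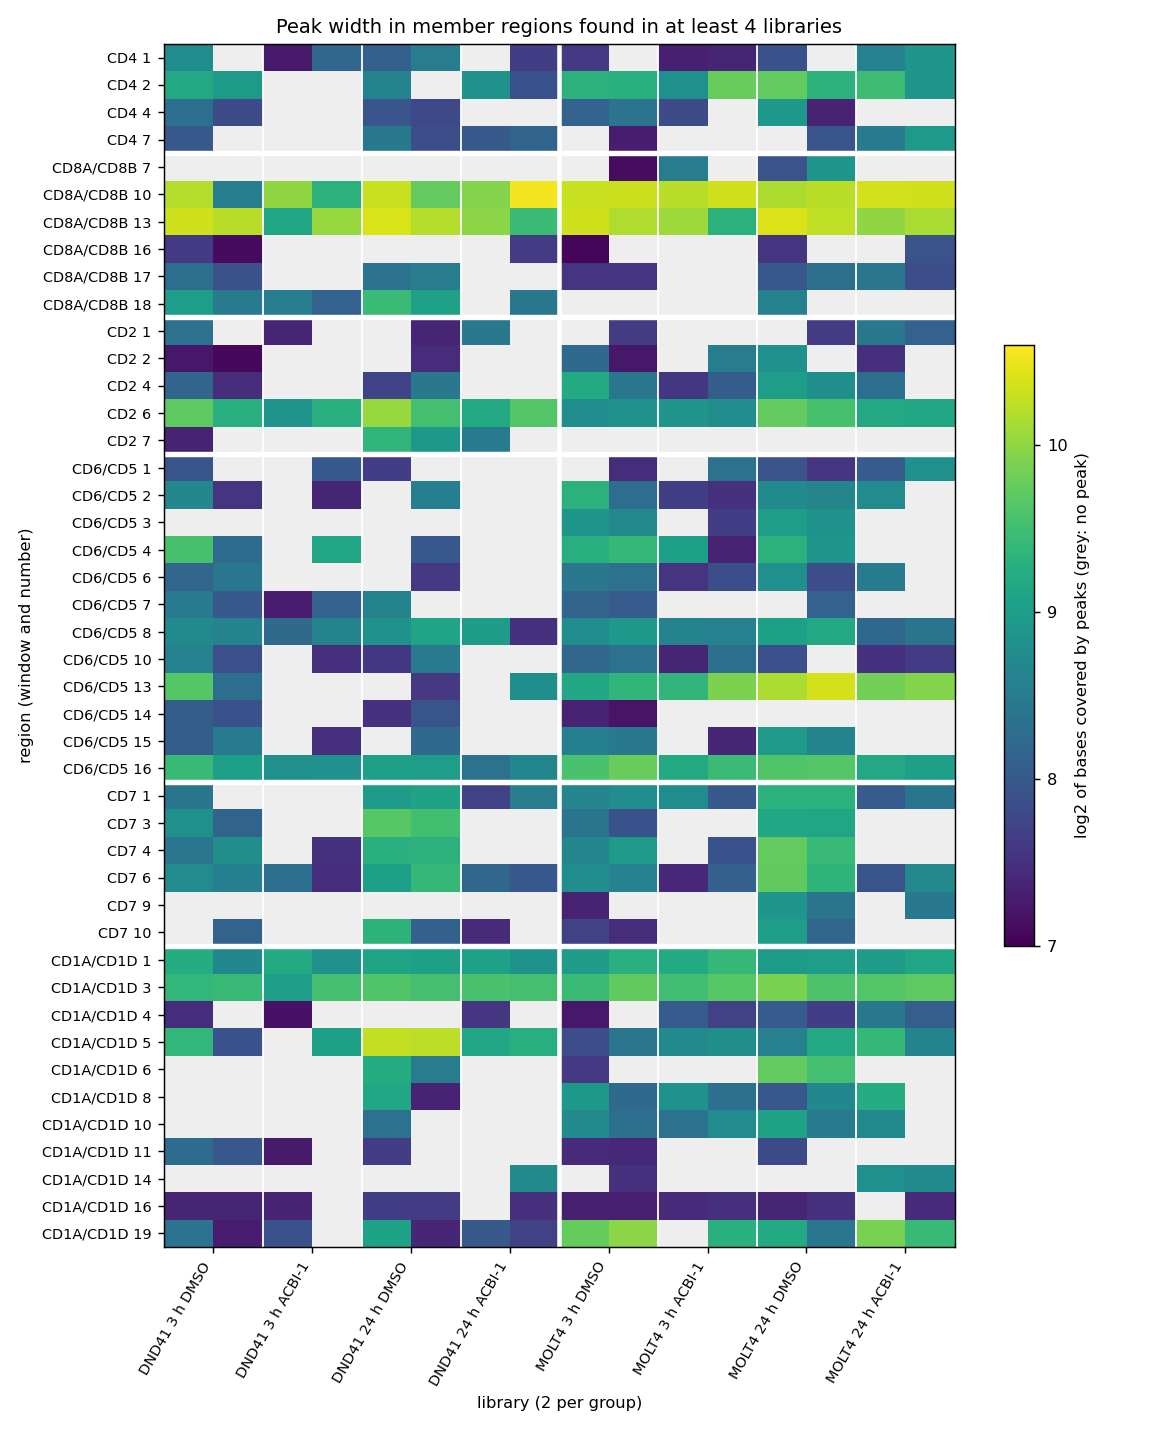
Width of peaks, as log2 of bases covered, at the 44 surface-gene regions found in at least 4 libraries (rows, named by window and number), in each of the 16 libraries (columns, 2 per group), with grey where no peak was listed. Grey cells are most frequent in the ACBI-1 columns of DND41, and the rows of the 8 regions found in every library have none.

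Among the 44 regions found in at least 4 libraries, 32 (72.7%) had a peak in more DMSO than ACBI-1 libraries, 3 (6.82%) in more ACBI-1 libraries, and 9 in equal numbers. Across the genome, 55.0% of 45121 such regions were found in more DMSO libraries and 7.96% in more ACBI-1 libraries. Within a line and time, regions listed in both DMSO libraries can be asked for a peak in ACBI-1 libraries. The share with none was 12 of 31 in DND41 at 3 h, against 20.9% across the genome, and 10 of 27 at 24 h, against 27.1%. In MOLT4 it was 6 of 32 at 3 h, against 22.2%, and 10 of 33 at 24 h, against 27.7%. The reverse pattern, a peak in both ACBI-1 and neither DMSO library, was met at 3 of 24 regions in MOLT4 at 24 h, against 4.57%. It was met at 0 of 11 and 0 of 13 regions of DND41 (1.15% at 3 h and 5.3% at 24 h across the genome) and at 0 of 22 of MOLT4 (1.48% at 3 h). The 3 regions gained in MOLT4 at 24 h lay in the CD2 window (1) and the CD1A/CD1D window (2).

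Tests of presence exchanged labels exactly and two-sided (an exact permutation test) within each line and time, adjusted by Benjamini-Hochberg over the 8082 regions of the genome whose peak numbers allow a p of 0.05 or less. Lower presence with ACBI-1 was called, at an adjusted p under 0.05, at 27.9% of these regions, and higher presence at 0.111%. Of the 14 surface-gene regions tested, 6 were called lower and 0 higher: 3 at CD7, and 1 each at CD4, CD8A/CD8B and CD6/CD5. With 1296 exchanges the smallest possible p was 0.00154, so calls sat close to the threshold. With all lists shortened to their 26145 widest peaks, as many as the shortest list holds, 0 of 8 testable surface-gene regions were called. The count also went to 0 on leaving out any of 7 libraries: replicate 1 of DND41 DMSO at 3 h, replicate 1 of DND41 ACBI-1 at 3 h, both DND41 ACBI-1 libraries at 24 h, replicate 2 of MOLT4 DMSO at 3 h, and both MOLT4 ACBI-1 libraries at 24 h. It was 2 or 3 without any other library. The genome-wide count of regions called lower was also 0 with shortened lists and without each of those 7 libraries.

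Width was tested with limma on log2 of covered bases at the regions found in all 16 libraries. Width was called lower with ACBI-1 at 7.48% of 12037 such regions and higher at 0.0665%. Of the 8 surface-gene regions tested, 2 were called narrower, CD7 region 6 and CD6/CD5 region 16, and 0 wider. Their median log2 difference was -0.38, against -0.12 over all 12037 regions. With each library centred on its median width, 172 regions of the genome were called narrower and 31 wider, against 900 and 8 without centring, and 1 of the 8 surface-gene regions, CD7 region 6, was called.

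CD7 encodes an immunoglobulin-family receptor that appears early in the lineage. In gene order CD7 lies between CSNK1D and SECTM1, and whether its window also holds parts of these neighbours on hg19 was not determined. The window held 10 regions, 6 of them in at least 4 libraries. Listed peaks covered fewer bases there in ACBI-1 libraries in every line and time. The covered bases were 1551 and 1380 in DMSO against 319 and 361 in ACBI-1 libraries of DND41 at 3 h, and 3519 and 2852 against 675 and 620 at 24 h. In MOLT4 they were 1941 and 1730 against 598 and 924 at 3 h, and 4082 and 3176 against 860 and 1547 at 24 h. The ranges of the arms did not overlap within any line and time. The same held for covered bases of the CD6/CD5 window and of the whole genome. Covered bases changed by -76.8% (3 h) and -79.7% (24 h) for DND41 and by -58.5% and -66.8% for MOLT4. Over the whole genome they changed by -25.9% and -27.9% for DND41 and by -26.6% and -26.9% for MOLT4.

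CD7 region 3 (chr17:80259758-80260596) had a peak in all 8 DMSO libraries and in no ACBI-1 library. It covered 446 and 285 bp in DND41 DMSO libraries at 3 h and 812 and 726 bp at 24 h. It covered 337 and 240 bp in MOLT4 DMSO libraries at 3 h and 571 and 559 bp at 24 h. Presence fell from 8 of 8 to 0 of 8 libraries (exact permutation p = 0.00154, the smallest possible, adjusted p = 0.0442). Of 18483 regions found in all 8 DMSO libraries, 1.13% had no peak in any ACBI-1 library, and region 3 was the only such case among 16 surface-gene regions. The call was lost in 7 of 16 leave-outs, in all of which the difference stayed at -1. In those 7 leave-outs 0 regions of the genome were called lower. Leaving out a library also leaves fewer label exchanges, so the smallest possible p is higher. With shortened lists the difference was -0.875 (exact permutation, adjusted p = 0.0990).

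CD7 region 4 (chr17:80260964-80261849) is the next region downstream by coordinate. Its DMSO libraries covered 342 and 439 bp at 3 h and 623 and 635 bp at 24 h in DND41, and 400 and 491 bp at 3 h and 850 and 697 bp at 24 h in MOLT4. With ACBI-1 a peak was listed only in 1 DND41 library at 3 h, of 183 bp, and in 1 MOLT4 library at 3 h, of 241 bp. These 2 peaks were narrower than every DMSO peak of the region. Presence fell from 8 to 2 of 8 libraries (exact permutation, adjusted p = 0.0497), and the call was lost in 14 of 16 leave-outs. With shortened lists the difference in presence was -0.875 in place of -0.75 (exact permutation, adjusted p = 0.0990).

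CD7 region 10 (chr17:80292602-80293299) had a peak in 7 DMSO libraries and in 1 ACBI-1 library. Its DMSO libraries covered 0 and 282 bp at 3 h and 645 and 279 bp at 24 h in DND41, and 208 and 177 bp at 3 h and 515 and 292 bp at 24 h in MOLT4. The only ACBI-1 peak, of 173 bp, was in DND41 at 24 h. Presence fell (exact permutation, adjusted p = 0.0497), and the call was lost in 16 of 16 leave-outs. With shortened lists the difference in presence was -0.375 in place of -0.75 (exact permutation p = 0.25). CD7 region 9 (chr17:80290108-80290615) was listed in 4 libraries, all MOLT4, with 163 bp in 1 DMSO library at 3 h, 476 and 334 bp in the DMSO libraries at 24 h, and 350 bp in 1 ACBI-1 library at 24 h.

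**Figure D2:**
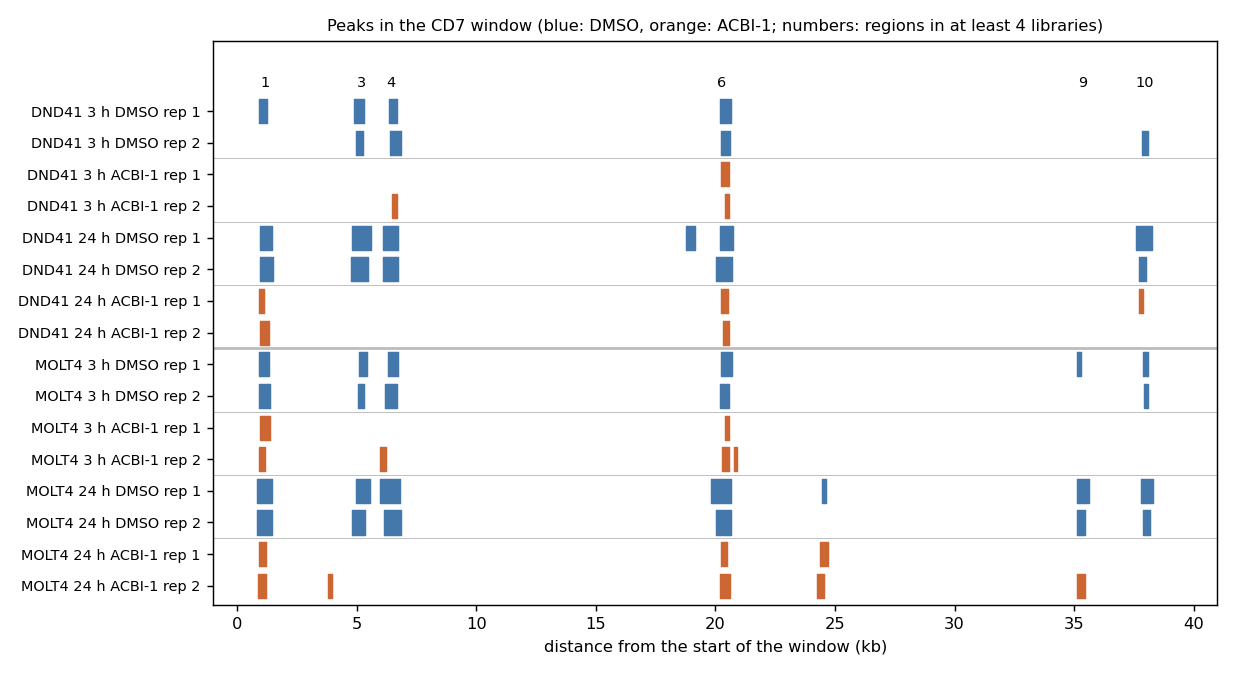
Peaks of each library (rows, blue for DMSO and orange for ACBI-1) along the CD7 window, as distance in kb from the window's start, with numbers above the 6 regions found in at least 4 libraries. Region 3 is empty in all 8 ACBI-1 rows, while region 6 has a peak in every row.

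CD7 region 6 (chr17:80274809-80275719) was the stable region of the window, with a peak in all 16 libraries, and it became narrower. In DND41 it covered 427 and 374 bp in DMSO against 319 and 178 bp in ACBI-1 libraries at 3 h, and 522 and 673 bp against 293 and 255 bp at 24 h. In MOLT4 it covered 435 and 388 bp against 169 and 276 bp at 3 h, and 842 and 655 bp against 244 and 415 bp at 24 h. Both ACBI-1 libraries lay below both DMSO libraries in every line and time. The log2 difference was -1.0 (SE 0.17; limma adjusted p = 0.0103), a change of -50.1%, and -0.87 with centred widths (limma adjusted p = 0.0358). Within a line and time the log2 difference ranged from -0.75 in DND41 at 3 h to -1.22 in MOLT4 at 24 h, and none of the 4 passed on its own. The surface-gene regions had 0 of 8 such calls in each, against 0.108% and 0.49% of the 12037 regions for DND41 at 3 h and 24 h, and 0.0249% and 1.13% for MOLT4. In the 8 libraries whose cell line field and title agree it was -1.02, with a limma adjusted p of 0.0694. Region 6 was also wider at 24 h than at 3 h, by 0.54 on the log2 scale (SE 0.17; limma adjusted p = 0.0362), a call lost in 11 of 16 leave-outs (limma adjusted p of 0.0223 to 0.0824). With centred widths this time call was lost too (limma adjusted p = 0.270). Across the genome 29.5% of the 12037 regions were called wider at 24 h.

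CD6 and CD5 encode related scavenger-receptor proteins that modulate T-cell receptor signals, and they lie next to each other between SLC15A3 and VPS37C. Their window held 16 regions, 12 of them in at least 4 libraries. DMSO libraries had peaks in 10.3 ± 1.98 (SD, n = 8) of the 16 regions and ACBI-1 libraries in 5.88 ± 2.90 (SD, n = 8). The change by line and time was -47.6% and -68.8% in DND41 and -28.0% and -35.0% in MOLT4. The mean difference was -4.38 regions per library for the lists as deposited.

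CD6/CD5 region 16 (chr11:60896797-60897705) was in all 16 libraries and was called for both treatment and line. In DND41 it covered 685 and 522 bp in DMSO against 449 and 452 bp in ACBI-1 libraries at 3 h, and 522 and 514 bp against 329 and 404 bp at 24 h. The MOLT4 widths were 760 and 873 bp against 582 and 700 bp at 3 h, and 788 and 800 bp against 576 and 523 bp at 24 h. The arms did not overlap within any line and time. The treatment log2 difference was -0.45 (SE 0.09; limma adjusted p = 0.0153), a change of -26.8%, which did not pass with centred widths (-0.32, limma adjusted p = 0.0582). MOLT4 was wider than DND41 by 0.54 (SE 0.09; limma adjusted p = 0.00411), or 45.3%.

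CD6/CD5 region 14 (chr11:60879303-60879569) had a peak in 6 DMSO libraries and in no ACBI-1 library. It covered 267 and 239 bp at 3 h and 183 and 245 bp at 24 h in DND41 DMSO libraries, and 163 and 146 bp in MOLT4 DMSO libraries at 3 h. MOLT4 at 24 h had no peak in either arm. Presence fell (exact permutation, adjusted p = 0.0497), but each of its peaks was narrower than the median peak of its list, and with shortened lists the difference in presence was -0.125 (exact permutation p = 1). The call was also lost in 16 of 16 leave-outs. CD6/CD5 region 8 (chr11:60809409-60810176), the other region of this window found everywhere, had a log2 width difference of -0.50 (SE 0.18) that did not pass (limma adjusted p = 0.107).

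**Figure D3:**
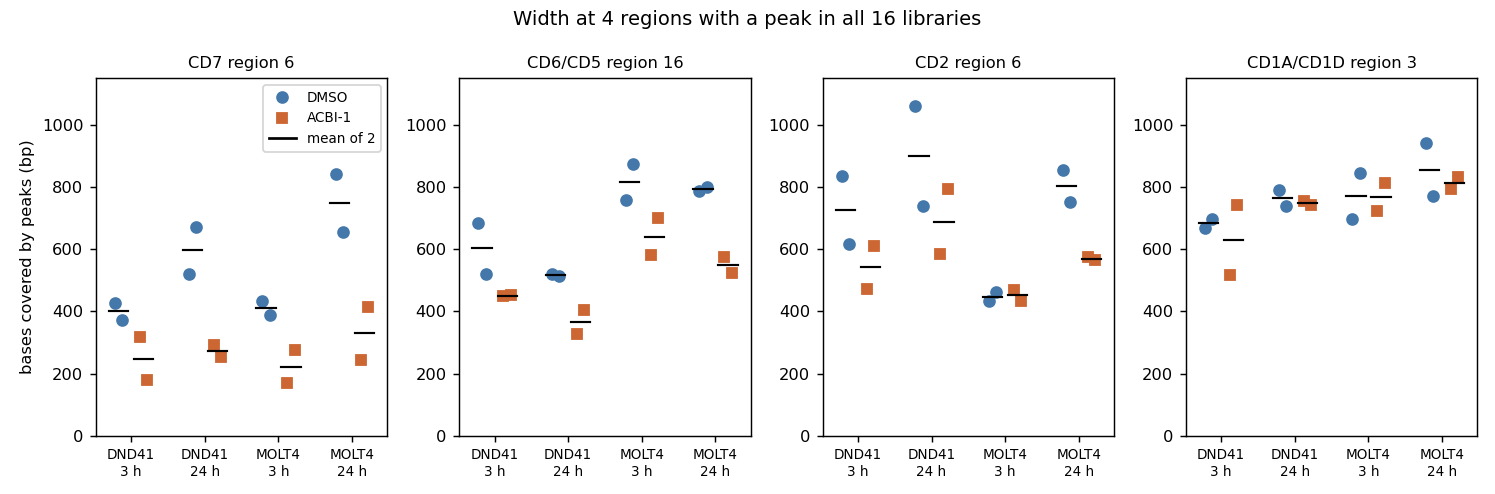
Bases covered by peaks (bp) at 4 regions found in all 16 libraries, by line and time, with each library as a point (circles DMSO, squares ACBI-1) and the mean of 2 libraries as a bar. CD7 region 6 and CD6/CD5 region 16 show ACBI-1 points below DMSO points in every line and time, while in CD1A/CD1D region 3 the arms overlap throughout.

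CD4 encodes the coreceptor for MHC class II and lies between LAG3 and GPR162. Its window held 7 regions. CD4 region 4 (chr12:6901028-6901510) had a peak in all 8 DMSO libraries, of 318 and 228 bp in DND41 at 3 h, 246 and 221 bp in DND41 at 24 h, 281 and 332 bp in MOLT4 at 3 h, and 483 and 162 bp in MOLT4 at 24 h. Of the ACBI-1 libraries 1 had a peak, of 226 bp, in MOLT4 at 3 h. Presence fell from 8 to 1 of 8 libraries (exact permutation p = 0.00463, adjusted p = 0.0442). The call was lost in 8 of 16 leave-outs, and with shortened lists the difference was -0.5 in place of -0.875 (exact permutation p = 0.0833).

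CD4 region 2 (chr12:6891890-6892758) was the widest of the CD4 window on average and was found in 13 libraries. In DND41 it covered 578 and 498 bp in DMSO libraries at 3 h and none in either ACBI-1 library, and 392 and 0 bp in DMSO against 461 and 239 bp in ACBI-1 libraries at 24 h. The MOLT4 widths were 635 and 609 bp against 450 and 869 bp at 3 h, and 850 and 639 bp against 718 and 473 bp at 24 h. The arms were thus apart only in DND41 at 3 h. Over the whole window the number of regions with a peak changed by -70.0% in DND41 at 3 h, and by -14.3% to -16.7% in the other 3 pairs of groups.

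CD8A and CD8B encode the chains of the MHC class I coreceptor and are neighbours. Their window held 18 regions, of which 8 were found in 1 library only and 2 in all 16. CD8A/CD8B region 10 (chr2:87034522-87036090) was the widest on average of the window and showed no treatment call, with a log2 difference of 0.16 (SE 0.21; limma adjusted p = 0.664). It covered 1175 and 373 bp in DMSO against 1021 and 636 bp in ACBI-1 libraries of DND41 at 3 h, and 1257 and 856 bp against 977 and 1486 bp at 24 h. For MOLT4 they were 1261 and 1276 bp against 1194 and 1292 bp at 3 h, and 1141 and 1197 bp against 1307 and 1301 bp at 24 h. MOLT4 libraries lay within 1141 to 1307 bp, while DND41 libraries ranged from 373 to 1486 bp. CD8A/CD8B region 13 (chr2:87052118-87053646) had a log2 difference of -0.53 (SE 0.15) that missed the threshold (limma adjusted p = 0.0519).

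CD8A/CD8B region 17 (chr2:87066603-87066972) had a peak in all 8 DMSO libraries and in 2 ACBI-1 libraries, both MOLT4 at 24 h. It covered 315 and 237 bp at 3 h and 330 and 364 bp at 24 h in DND41 DMSO libraries, and 188 and 187 bp at 3 h and 251 and 320 bp at 24 h in MOLT4 DMSO libraries. The MOLT4 ACBI-1 libraries at 24 h covered 344 and 233 bp, which overlaps their DMSO range. Presence fell over all groups (exact permutation, adjusted p = 0.0497), a call lost in 16 of 16 leave-outs. With shortened lists the difference in presence was -0.375 in place of -0.75 (exact permutation, adjusted p = 0.443). Over the whole window the number of regions with a peak changed by -50.0% for DND41 at both times, -54.5% for MOLT4 at 3 h and 8.33% for MOLT4 at 24 h. The last value rests on regions found in 1 library only: over regions found in at least 2 libraries the changes were -45.5% for DND41 at both times, -50.0% for MOLT4 at 3 h and -33.3% for MOLT4 at 24 h.

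CD2 encodes an adhesion receptor that binds CD58, and lies between IGSF3 and PTGFRN. Its window held 8 regions and none was called for treatment. CD2 region 4 (chr1:117305874-117306473) came closest by presence, with all 8 DMSO and 3 ACBI-1 libraries (exact permutation p = 0.0278, adjusted p = 0.0573). It covered 289 and 175 bp at 3 h and 212 and 348 bp at 24 h in DND41 DMSO libraries, and none of the 4 DND41 ACBI-1 libraries had a peak. MOLT4 libraries covered 590 and 342 bp against 192 and 268 bp at 3 h, and 514 and 443 bp against 315 and 0 bp at 24 h.

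CD2 region 6 (chr1:117311698-117312778) was found in all 16 libraries. In DND41 it covered 835 and 618 bp in DMSO against 472 and 611 bp in ACBI-1 libraries at 3 h, and 1060 and 740 bp against 584 and 794 bp at 24 h. In MOLT4 it covered 433 and 462 bp against 470 and 434 bp at 3 h, and 854 and 753 bp against 576 and 564 bp at 24 h. The arms overlapped at 24 h in DND41 and at 3 h in MOLT4, and the treatment log2 difference of -0.32 (SE 0.11) did not pass (limma adjusted p = 0.0986). The region was wider at 24 h than at 3 h by 0.46 (SE 0.11; limma adjusted p = 0.0146), as were 29.5% of the 12037 regions of the genome. The call was lost with centred widths (limma adjusted p = 0.144). Time cannot be told apart from a tag in the peak names that differs between times.

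CD1A and CD1D encode lipid-presenting proteins, and CD1D lies just before CD1A in gene order. CD1B, CD1C and CD1E come after CD1A, and their order among themselves was not checked. Whether the CD1A/CD1D window also holds parts of these neighbours on hg19 was not determined. The window held 21 regions, the most of the 6, and none was called for treatment. Neither of its 2 regions found in all 16 libraries was called by width. CD1A/CD1D region 3 (chr1:158173440-158174407) covered 670 and 697 bp in DMSO against 517 and 744 bp in ACBI-1 libraries of DND41 at 3 h, and 792 and 740 bp against 755 and 743 bp at 24 h. In MOLT4 it covered 698 and 845 bp against 723 and 815 bp at 3 h, and 941 and 771 bp against 793 and 833 bp at 24 h. The arms overlapped in every line and time, and the log2 difference was -0.06 (SE 0.09; limma adjusted p = 0.684).

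CD1A/CD1D region 6 (chr1:158223443-158224507) had a peak in 5 DMSO libraries and in no ACBI-1 library. It covered 599 and 368 bp in DND41 at 24 h, 849 and 739 bp in MOLT4 at 24 h and 194 bp in 1 MOLT4 library at 3 h. The difference in presence did not pass (exact permutation p = 0.0278, adjusted p = 0.0573). All 4 DMSO libraries at 24 h had the peak and 1 of the 4 at 3 h did.

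**Figure D4:**
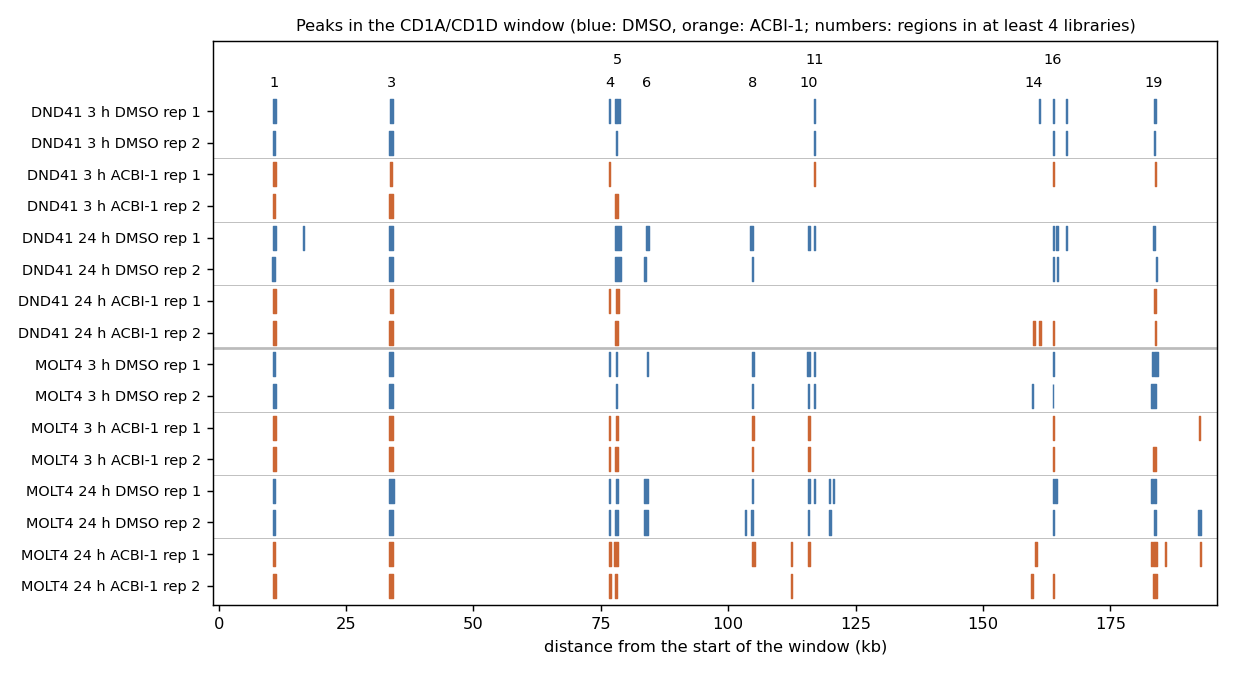
Peaks of each library (rows, blue for DMSO and orange for ACBI-1) along the CD1A/CD1D window, as distance in kb from the window's start, with numbers above the 11 regions found in at least 4 libraries. Regions 1 and 3 have a peak in every row, region 6 only in DMSO rows, and regions 8 and 10 mostly in MOLT4 rows.

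The windows can be set side by side by the difference in regions with a peak per library, ACBI-1 minus DMSO. It was -1.25 for CD4, -2.13 for CD8A/CD8B, -1.25 for CD2, -4.38 for CD6/CD5, -2.63 for CD7 and -3 for CD1A/CD1D, with SDs within groups of 1.22, 1.2, 1.12, 1.68, 0.901 and 1.66. The windows differ in length and in number of regions, so these differences have no order. With shortened lists the CD7 value was also -2.63 and the CD6/CD5 value -2.5, whereas the CD2 and CD1A/CD1D values turned to 0.25, the CD8A/CD8B value went to -0.5 and the CD4 value to -0.125.

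**Figure D5:**
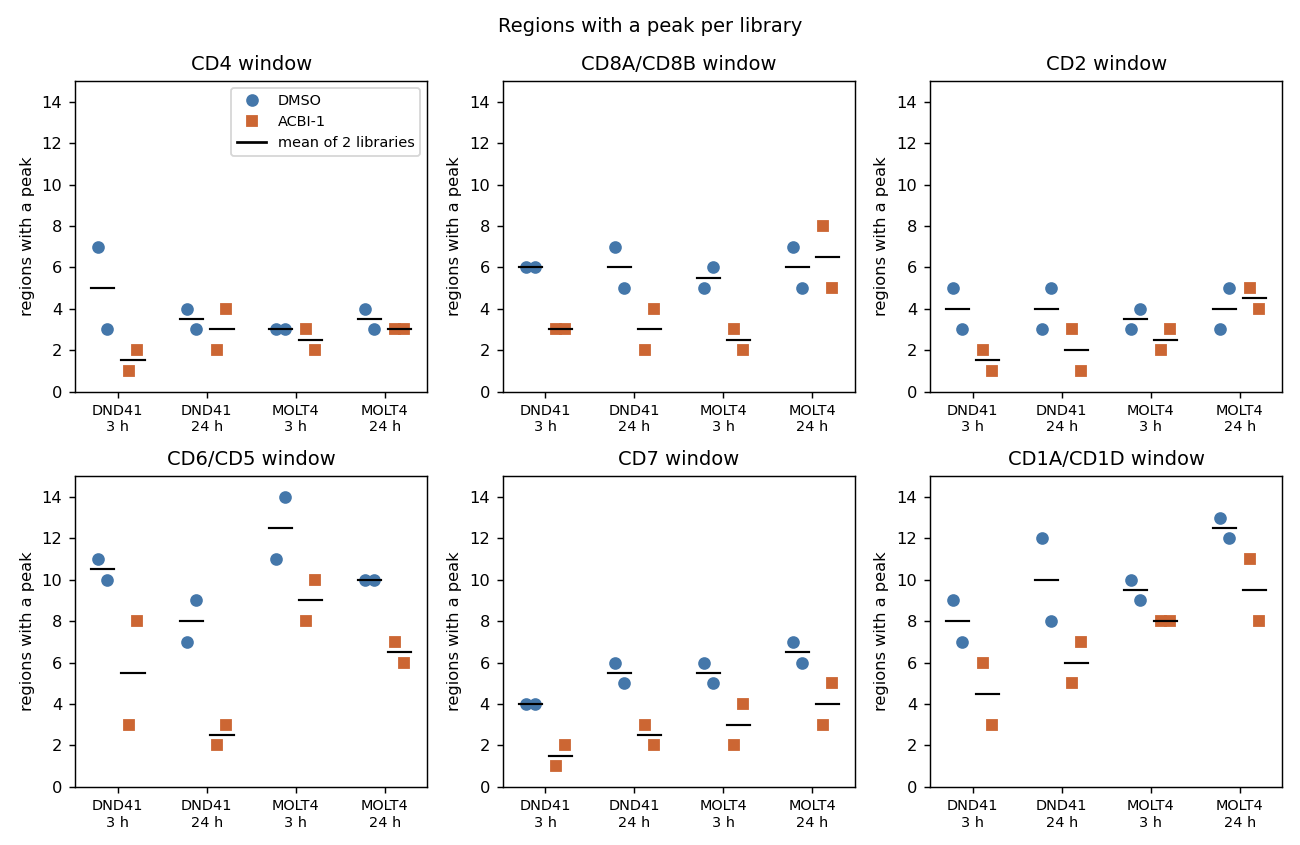
Number of regions with a peak per library in each of the 6 windows, by line and time, with each library as a point (circles DMSO, squares ACBI-1) and the mean of 2 libraries as a bar. In the CD7, CD6/CD5 and CD1A/CD1D windows the ACBI-1 points lie below the DMSO points in every line and time. In the CD8A/CD8B window the arms overlap in MOLT4 at 24 h. In the CD2 and CD4 windows they touch or overlap in every line and time except DND41 at 3 h.

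The second comparison was between the lines. Higher presence in MOLT4 was called at 40.8% and lower presence at 23.3% of 11709 regions tested in the genome. Of 7 surface-gene regions tested, 3 were called higher in MOLT4 and 1 lower, with the same exact test within time and treatment. In the CD1A/CD1D window 2 regions were called higher in MOLT4, in the CD6/CD5 window 1, and the region called lower lay in the CD8A/CD8B window.

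CD1A/CD1D region 10 (chr1:158255536-158256142) had a peak in 7 MOLT4 libraries and in 1 DND41 library. The MOLT4 libraries at 3 h covered 421 and 317 bp (DMSO) and 324 and 427 bp (ACBI-1), and those at 24 h covered 540 and 355 bp (DMSO) and 424 and 0 bp (ACBI-1). The DND41 peak, of 324 bp, was in 1 DMSO library at 24 h (exact permutation, adjusted p = 0.0311). CD1A/CD1D region 8 (chr1:158244261-158245204) was similar, with 7 MOLT4 and 2 DND41 libraries, the latter both DMSO at 24 h with 569 and 162 bp (exact permutation, adjusted p = 0.0433). In MOLT4 region 8 covered 485 and 300 bp (DMSO) and 458 and 322 bp (ACBI-1) at 3 h, and 252 and 411 bp (DMSO) and 601 and 0 bp (ACBI-1) at 24 h. Region 10 was called in 24 of 24 settings, the one reported included, and region 8 in 20 of 24.

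CD6/CD5 region 3 (chr11:60753559-60754109) had no peak in any DND41 library. In MOLT4 it covered 466 and 414 bp in DMSO against 0 and 202 bp in ACBI-1 libraries at 3 h, and 517 and 460 bp against none at 24 h. Presence was higher in MOLT4, in 5 of 8 libraries (exact permutation, adjusted p = 0.0433). Within MOLT4 all 4 DMSO libraries had the peak and 1 ACBI-1 library did, a split that was not tested within the line.

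CD8A/CD8B region 18 (chr2:87078611-87079312) was the region called higher in DND41, with 7 DND41 libraries and 1 MOLT4 library. In DND41 it covered 518 and 357 bp in DMSO against 369 and 280 bp in ACBI-1 libraries at 3 h, and 702 and 536 bp against 0 and 347 bp at 24 h. The MOLT4 peak, of 385 bp, was in 1 DMSO library at 24 h (exact permutation, adjusted p = 0.0311). CD2 region 7 (chr1:117320535-117321198) was listed in 4 libraries, all DND41, with 162 bp in 1 DMSO library at 3 h, and at 24 h with 664 and 485 bp in the DMSO libraries and 363 bp in 1 of the ACBI-1 libraries.

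By width, MOLT4 was called wider at 6.6% and narrower at 3.26% of the 12037 regions. CD6/CD5 region 16, above, was the 1 of 8 surface-gene regions called wider in MOLT4, and 0 were called narrower. With centred widths the genome had 889 regions called narrower and 733 wider in MOLT4, against 393 and 794, and CD2 region 6 was then called narrower in MOLT4 (-0.39, limma adjusted p = 0.0179), against -0.33 and an adjusted p of 0.0804 without centring.

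The third comparison was between times, where the peak names also carry a different tag at 3 h and at 24 h of unstated meaning, so that time and whatever the tag stands for cannot be told apart. By the exact presence test 0 of 3762 regions of the genome (0%) and 0 of 4 surface-gene regions were called, with 589 and 0 at an unadjusted p under 0.05. Width was called higher at 24 h at 29.5% and lower at 0.291% of the 12037 regions, with a median log2 difference of 0.20. Of the 8 surface-gene regions 2 were called wider, CD7 region 6 and CD2 region 6. With centred widths 948 regions of the genome were called narrower and 455 wider at 24 h, against 35 and 3547 without centring. Neither of the 2 was then called (limma adjusted p = 0.270 for CD7 region 6 and 0.144 for CD2 region 6), and CD6/CD5 region 16 was called narrower at 24 h (-0.43, limma adjusted p = 0.0102).

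Whether the treatment difference itself differed between lines or times was tested at each region that allowed it. By the exact presence test 0 of 11709 regions were called between lines and 0 of 3762 between times (0% each), with 100 and 127 at an unadjusted p under 0.05. By limma on widths 0 of 12037 were called in either (0% each), with 655 and 907 at an unadjusted p under 0.05. Of the 80 surface-gene regions, presence could be tested at 7 between lines and at 4 between times, and width at 8. None of these reached an unadjusted p under 0.05. The 6 regions called lower in presence with ACBI-1 were not among them, so whether their difference varied by line or time was not tested. A region listed in all 8 DMSO libraries and lost with ACBI-1 in only 1 line, or at only 1 time, could not enter. Its smallest possible p was 0.0556. The lack of presence calls therefore does not show that losses were alike between lines or times. For CD7 region 6 the treatment difference in MOLT4 minus that in DND41 was -0.14 (SE 0.34) and at 24 h minus 3 h -0.33 (SE 0.34), both on the log2 scale.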

How the data were processed

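The 16 deposited files each listed the peaks of a library in 4 columns (chromosome, start, end and name), so the deposited values used were positions on hg19, printed here counted from 1, with no signal, p-value or read count. Per the submitters' processing notes, MACS2 2.1.1.2016030, SAMtools, Bowtie2 and Picard were used, with no roles or settings given, and the meaning of a tag in the peak names that differs between times is not given. Only chromosomes 1 to 22 and X were used, which left out 947 peaks, and peaks were merged at 1 shared base (Python 3.11.15, pandas 2.3.3, numpy 2.4.6). Presence was tested by exact label exchange within strata of the other 2 factors and width by limma 3.58.1 (R 4.3.3, trend) on 8 group means, both adjusted by Benjamini-Hochberg over all testable regions of the genome and called under 0.05. The smallest p was 0.0556 within 1 line or time and 0.333 within 1 line at 1 time.

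The members and lists were chosen with earlier results of these data known. Regions were named where called (at most 5 a window), where widest on average in their window, and where the unadjusted presence p for treatment or line was smallest; CD6/CD5 region 8 and CD8A/CD8B region 13 fall outside this rule and were named after their values were seen, as regions found in all 16 libraries. Gene order came from RefSeq on GRCh38.p14, used for names only. Same-numbered libraries did not deviate together (correlations of -0.142 to 0.0062 for treatment, 4 pairs), so replicate numbers were not used as a block. On simulated presence of 131357 regions, 81.3% of 2000 changed regions were called with 6 false calls, and 0% of 200. On simulated widths of 12037 regions, 93.5% of 200 regions changed by -1.0 and 53.0% of 200 changed by -0.5 on the log2 scale were called, with 9 false calls each. Alternatives were a common minimum width of 170 bp, equal list lengths, other merging distances, all sequences, a replicate block, an unstratified test, centred widths, an exact width test, regions found in at least 12 libraries (widths) or at least 2 (window differences), and each library left out; the 8 libraries whose field and title agree were added after seeing the data.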

Additional observations from a re-analysis of the deposited data

How the results depend on the processing

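The count of surface-gene regions called by presence for treatment (6) was 1 with a common minimum width of 170 bp, 0 with equal list lengths, 2 with peaks up to 100 bases apart merged, 2 in the unstratified test, and 0 to 3 with a library left out. The genome moved too: regions called lower numbered 2251 of 8082 as deposited and 0 with equal list lengths. With a library left out they numbered 0 or 898 to 1110. The count for line (4) was 2 in the unstratified test and 4 to 6 with a library left out. By width, the treatment count (2) was 1 with centred widths, 0 in the 8 libraries whose field and title agree, and 2 to 4 with a library left out. The line count (1) was 2 with centred widths, 2 over regions in at least 12 libraries, and 1 to 2 with a library left out. The time count (2) was 1 with centred widths, 1 with peaks up to 100 bases apart merged, and 1 to 3 with a library left out. The cause of these moves was not tested.

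With equal list lengths the window differences were -0.125 for CD4 (-1.25 as deposited), -0.5 for CD8A/CD8B, -2.5 for CD6/CD5, 0.25 for CD2 and 0.25 for CD1A/CD1D, the last 2 reversed. Over regions in at least 2 libraries they ran from -4.25 for CD6/CD5 to -1.13 for CD2, with no reversal. With a library left out they ranged from -1.75 to -0.75 for CD4, -2.5 to -1.75 for CD8A/CD8B, -1.5 to -1 for CD2, -5 to -3.75 for CD6/CD5, -2.88 to -2.38 for CD7 and -3.5 to -2.5 for CD1A/CD1D.

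With the replicate block the treatment count was 6 of 7 testable by presence and 0 by width, with limma adjusted p of 0.0510 for CD7 region 6 and 0.0611 for CD6/CD5 region 16, and the line count by presence was 2. With the block a region could be tested for treatment only if most same-numbered ACBI-1 and DMSO libraries differed in presence. The 6 of 7 was therefore largely set by this filter and adds no support. The labels do not say whether the replicate numbers pair libraries, and why the width calls were lost was not tested.

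No called value of a named region changed direction. Of the values recomputed, 483 stayed on the same side of the threshold (values never called included), 122 lost the call and 6 gained it. CD7 region 3 was called lower in presence with ACBI-1 in 16 of 24 settings, the one reported included. The count was 14 for CD4 region 4 and 6 for CD7 region 4. It was 4 each for CD7 region 10, CD8A/CD8B region 17 and CD6/CD5 region 14. The treatment width calls held in 22 settings for CD7 region 6 and 21 for CD6/CD5 region 16. Across alternatives the adjusted p of CD7 region 3 ran from 0.0154 to 0.0990. Depth is unknown, so a missing peak has no stated detection limit.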
